A study of Mus musculus with 9 samples.

Results

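The replication-dependent histone genes encode the bulk of the linker (H1) and core (H2A, H2B, H3 and H4) histones that package newly made DNA. They were taken as the protein-coding genes whose GENCODE M21 symbol starts with Hist1h, Hist2h, Hist3h or Hist4h, without use of any measured value. The rule found 67 genes of the 35288 identifiers in the deposited table, and left out 3 pseudogenes of the 70 symbols. All 67 members were listed in the table. The families held 6 H1, 18 H2A, 18 H2B, 12 H3 and 13 H4 genes. The Hist1 cluster on chromosome 13 held 54 of them, Hist2 on chromosome 3 held 10, Hist3 on chromosome 11 held 2 and Hist4 on chromosome 6 held 1.

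Transcription of these genes is coupled to S phase through the coactivator NPAT. Most of their mRNAs are not polyadenylated: the transcript is cut a few bases after a conserved stem-loop, which the stem-loop binding protein SLBP holds through processing, translation and decay. The uncut, polyadenylated forms of some members are known from differentiating cells. Each core histone protein is encoded by many nearly identical gene copies.

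T15 is a Smarcb1-negative murine line of peripheral T-cell lymphoma (PTCL) from a model in which a CD4-driven Cre deletes floxed Smarcb1, and every group carried this deletion. SMARCB1 is a core subunit of the SWI/SNF chromatin remodelling complex. The 9 RNA-seq libraries fell into 3 groups of 3: control cells, cells given 1 µM SAHA (vorinostat, an inhibitor of histone deacetylases) for 72 h, and Smarcb1-RE cells, which carry a doxycycline-inducible lentiviral Smarcb1 cDNA under G418 selection and received 0.5 µg/µl Dox for 72 h. The labels mention a vehicle and a control plasmid but do not say which the control libraries received, so transduction, selection and Dox cannot be told apart from Smarcb1. The paper calls the replicates biological and, in its text, the control cells untreated, while its scheme of re-expression shows an empty vector with Dox. Neither it nor the labels say that replicates were separate cultures, and p-values then measure only the spread between these samples. Since the samples are bulk, fewer cells of a type and less RNA per cell cannot be told apart.

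The deposited estimated counts added up to 24564845 to 24941408 per control library, 23403413 to 24189900 per SAHA library and 20900424 to 21911105 per Smarcb1-RE library. Values are CPM, that is, counts scaled to a common library size after TMM normalization, and a fold change was called at an adjusted p under 0.05 by edgeR's quasi-likelihood test over the 13697 genes that passed the filter on low counts. Smarcb1 had 2, 5 and 8 counts in control, 7, 13 and 3 in SAHA and, in Smarcb1-RE, 151, 147 and 142, and was higher in Smarcb1-RE than in control by 4.89 on the log2 scale (standard error, SE, 0.36, adjusted p = 6.19e-08). Control replicate 1 stood apart: the chi-square per gene was 13.4 and 15.0 for its pairs with the other controls and 2.08 to 4.69 for all other replicate pairs. The 13 T-cell markers summed to 3580 to 3860 CPM over all libraries, while Cd4, whose promoter drives the Cre of the model, was at 0 in every library. Cd2 had at most 3 counts in a library, Cd5 at most 1 and Thy1 at most 6. Markers of 5 B-cell genes summed to between 0.936 and 1.14 CPM in control, between 1.24 and 1.86 in SAHA and between 7.25 and 7.97 in Smarcb1-RE. The 8 myeloid markers summed to 0.550 to 0.765, 0.0433 to 0.0884 and 0.133 to 0.341 CPM in the same order, with S100a8 and S100a9 at 0, and 5 stromal and epithelial markers to 7.57 to 9.87, 9.14 to 10.3 and 66.4 to 68.6 CPM. Nearly all of the last sum was Pdgfra, at 65.8 to 68.0 CPM. Col1a1 had 11 counts in each Smarcb1-RE library and at most 5 in a control library, while Epcam fell in Smarcb1-RE (log2 fold change −3.67, adjusted p = 2.64e-05), and Col1a2 and Pdgfrb had at most 4 counts in any library. The part of these markers in the results was not tested.

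Because the stem-loop at the end of the mRNA is the feature that sets these genes apart, it was searched for in every GENCODE M21 transcript (GRCm38) as complementary stem arms of 6 bases around a loop of 4, the first arm starting with GG and ending with T. At any position, it was present in 46 of 67 members (68.7%), counted per gene, against 1.35% of 58797 protein-coding transcripts, counted per transcript. In their last 100 bases, 0.0748% of protein-coding transcripts had it. The motif was found in 4 of 6 H1, 11 of 18 H2A, 10 of 18 H2B, 9 of 12 H3 and 12 of 13 H4 genes. Of the 21 members without a match, 13 have a longest annotated transcript under 420 bases. The stem-loop had 8 different sequences. The forms carried by genes described later are shown 5′ to 3′, with the stem arms in capitals and the loop in lower case, and each lies in the exon of a gene with a single annotated transcript.
Hist1h2ao, chr13:21810898-21810913, plus strand: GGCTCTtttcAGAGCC
Hist1h1e, chr13:23621782-23621797, minus strand: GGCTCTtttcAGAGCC
Hist3h2a, chr11:58955172-58955187, plus strand: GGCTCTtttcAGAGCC
Hist1h2bk, chr13:22036300-22036315, plus strand: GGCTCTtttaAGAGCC
Hist1h3c, chr13:23745047-23745062, minus strand: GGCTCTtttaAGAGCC
Hist4h4, chr6:136803998-136804013, minus strand: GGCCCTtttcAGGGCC
Hist2h4, chr3:96262939-96262954, minus strand: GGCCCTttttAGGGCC
Hist1h4b, chr13:23757366-23757381, plus strand: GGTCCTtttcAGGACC

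The form with a tttc loop and GGCTCT stem was carried by 26 members from every family but H4, and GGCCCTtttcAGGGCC by 7 members, all of them H4 genes. What is annotated after the stem-loop differs far more than the stem-loop itself. Hist1h2ao has 31 bases after it, Hist1h2bk 30, Hist1h4b 28 and Hist1h3c 74. Hist1h1c has 840 bases after it, Hist1h1e 1153, Hist2h4 1257, Hist3h2a 1643, Hist4h4 2445 and Hist1h1d 4884. An AATAAA within the last 50 bases, the usual signal for polyadenylation, was present in 14 of 67 members (20.9%), counted per gene. It was present in 40.5% of protein-coding transcripts, counted per transcript. The sources used here do not say whether the libraries were made from poly(A)-selected or rRNA-depleted RNA, which bears on how much of an uncut or polyadenylated form they hold.

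Promoters were read for 62 of 67 members from RefSeq (GRCm38.p6), from 250 bases before to 50 after each start. On either strand, CCAAT was present in 53 of 62 (85.5%, against 37.4% of 32851 promoters), TATAAA in 35 (56.5% against 13.6%), the octamer ATTTGCAT in 14 (22.6% against 1.7%) and AAACACA, the box known from H1 promoters, in 9 (14.5% against 7.2%). Every H1, H2A, H2B and H3 window held CCAAT, but 3 of 12 H4 windows did. The octamer was in 7 of 18 H2A and 7 of 16 H2B windows and in no window of the other families, whereas AAACACA was in 5 of 6 H1 windows. The 130 bases directly before the RefSeq start are printed for a pair of H1 genes that rose in Smarcb1-RE and for 2 genes that were called in opposite directions in the treatments, with these letters in capitals where they match on either strand. A match is a description and not a binding site.
Hist1h1d, chr13:23554902-23555031, plus strand: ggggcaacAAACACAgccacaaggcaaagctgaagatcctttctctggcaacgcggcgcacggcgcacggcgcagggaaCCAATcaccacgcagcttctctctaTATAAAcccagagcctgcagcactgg
Hist1h1e, chr13:23622559-23622688, minus strand: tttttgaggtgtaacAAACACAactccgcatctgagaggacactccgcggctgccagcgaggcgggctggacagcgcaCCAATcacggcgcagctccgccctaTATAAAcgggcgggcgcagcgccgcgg
Hist1h2bk, chr13:22035691-22035820, plus strand: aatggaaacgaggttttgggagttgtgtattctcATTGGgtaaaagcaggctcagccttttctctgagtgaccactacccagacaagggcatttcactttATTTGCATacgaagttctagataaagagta
Hist3h2a, chr11:58954555-58954684, plus strand: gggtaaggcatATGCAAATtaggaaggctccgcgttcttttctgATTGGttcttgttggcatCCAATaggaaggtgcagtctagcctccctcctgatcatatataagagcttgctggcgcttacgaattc

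Hist1h1d and Hist1h1e share the order of the H1 box, CCAAT and then the TATA letters. The Hist1h1d stretch precedes the RefSeq start but lies inside the single GENCODE M21 exon of the gene (chr13:23553262-23560686), so the annotations differ on its start. The windows of Hist1h2bk and Hist3h2a both hold the octamer and CCAAT. The first has CCAAT on the reverse strand as ATTGG, the second has it on both strands and the octamer on the reverse strand, and neither stretch has the TATAAA letters.

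In all 3 groups most of the CPM of the members came from a single pair of H2A genes. Since the RNA selection is not given, this share need not be that of the cells' histone mRNA, which was not tested. Hist1h2ao (ENSMUSG00000094248, chr13:21810465-21810944) and Hist1h2ap (ENSMUSG00000094777, chr13:21833026-21833507) share 93.8% and 93.4% of their 31-base words, so the division of reads between them is uncertain and their sum is the safer value. Together they made up 81.1% to 82.0% of the CPM of all members in control, 56.2% to 58.5% under SAHA and 65.3% to 70.0% with Smarcb1-RE. Per length, Hist1h2ao stood at 194 CPM per kb over all libraries, Hist1h2ap at 30.5, and the next members, the H3 gene Hist1h3h and Hist1h3i, at 4.70 and 3.45.

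The pair summed to 167, 128 and 139 CPM in control. It summed to 81.4, 78.8 and 78.8 CPM under SAHA and to 104, 93.0 and 101 CPM with Smarcb1-RE. Every treated library lay below every control library, and SAHA below Smarcb1-RE. Without this pair, the other 65 members summed to 37.3, 28.1 and 32.4 CPM in control, 61.2, 61.3 and 55.8 in SAHA and, in Smarcb1-RE, 49.0, 49.5 and 43.2, which is the opposite order with no overlap between groups. These sums of CPM, and those by family and cluster below, are values only and were given no test. Sums of counts over sequence-sharing members, given below with an adjusted p, were tested in a fit of their own.

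By family, H1 summed to 4.72, 4.44 and 5.06 CPM in control, 8.27, 7.69 and 7.62 with SAHA, and 13.8, 11.4 and 12.2 with Smarcb1-RE. H3 summed to 5.4, 4.44 and 5.84 CPM, 14.4, 14.7 and 13.7 CPM, and 7.21, 6.37 and 6.42 CPM in the same order. No groups overlapped in either family, but H1 was highest in Smarcb1-RE, at 2.63 times the control mean, and H3 in SAHA, at 2.73 times. Over control, SAHA and Smarcb1-RE, H2B summed to 9.35 ± 1.15, 17.4 ± 0.939 and 13.5 ± 0.961 CPM (SD, n = 3), and H4 to 5.72 ± 0.296, 10.8 ± 0.951 and 7.09 ± 1.08 CPM (SD, n = 3), both highest in SAHA. The 16 H2A genes besides the pair summed to 10.5, 4.90 and 7.24 CPM in control, 9.53, 9.63 and 8.18 in SAHA and, in Smarcb1-RE, 6.95, 9.52 and 6.04, with all 3 groups overlapping.

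**Figure D1:**
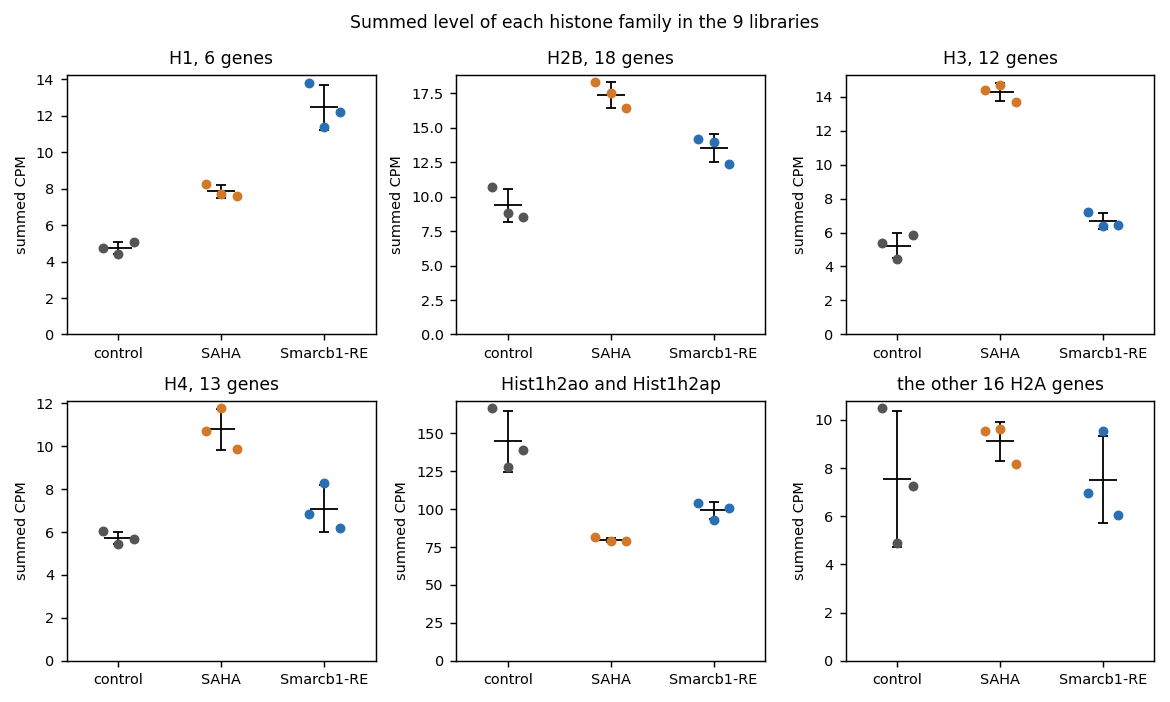
Summed CPM (y axis, from 0) of each histone family in the 3 control, 3 SAHA and 3 Smarcb1-RE libraries, with Hist1h2ao and Hist1h2ap apart from the other H2A genes. Points are libraries and bars are the mean and SD (n = 3); the H1 sum is highest in Smarcb1-RE, the H3 sum in SAHA, and the Hist1h2ao and Hist1h2ap sum in control.

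Outside the pair, these genes were measured near the detection limit, and the filter has to be read with every count that follows. Of the 67 members, 41 passed it and 26 did not. A total of 3 counts, taken as the smallest detectable level, is 0.123 to 0.133 CPM per library and covers counting error only. Of the 41, 39 had a mean under 5 CPM. Hist1h1t and Hist1h2ba, both known as testis genes, and Hist2h2ab were at 0 in all 9 libraries, and no untested member exceeded 24 counts in a library. Only 18 of the 41 reached the filter's 0.418 CPM in all 3 control libraries, against 30 in SAHA and 28 in Smarcb1-RE. The other 23 could pass through a treated group in which they were high: 11 of them were called higher in SAHA and 9 in Smarcb1-RE. Counts over tested members are therefore descriptions and not support for a direction. Reads are also shared: 41 of 67 members have under 50% of 31-base words of their own, and 5 have none.

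SAHA against control asked which of these genes change when deacetylases are inhibited. H3 and H2B genes of Hist1 were called higher in most cases, while the abundant Hist1h2ao fell. In all, 19 tested members were higher and 4 lower, a share of 56.1% called against 66.9% of all 13697 genes tested. The members called higher were 46.3% of those tested against 32.6% of all genes, and those called lower 9.76% against 34.3%. Of the 18 members above the filter's minimum in every control library, 8 were higher and 4 lower. With no filter at all, 64 members could be tested, of which 21 were higher and 4 lower. The libraries did not overlap for 20 members that were above and 3 that were below control, against 33.8% and 34.9% of all genes. The median log2 fold change was 1.04 over tested members and 0.00 over all genes.

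Among H3 genes, 5 of 8 tested were higher in SAHA and none lower. Hist1h3c stood at 0.978, 0.972 and 1.40 CPM in control and at 4.89, 3.71 and 3.96 in SAHA, a gap well beyond the spread of either group. It rose by 1.90 on the log2 scale (SE 0.21, adjusted p = 5.68e-06). Hist1h3h stood at 0.638, 0.465 and 1.81 CPM in control and 3.08, 3.49 and 4.57 in SAHA (log2 fold change 1.92, SE 0.39, adjusted p = 0.000814). Hist1h3i was at 1.40, 0.888 and 0.288 CPM in control and 2.30, 2.78 and 1.85 in SAHA (1.43, SE 0.38, adjusted p = 0.00518). Hist1h3a, with 0.383, 0.0845 and 0.165 CPM in control and 0.910, 0.972 and 0.861 in SAHA, rose by 2.09 (SE 0.47, adjusted p = 0.00155). In none of these 4 genes did control and SAHA libraries overlap. They share much of their sequence, and when Hist1h3a, Hist1h3b, Hist1h3c, Hist1h3g, Hist1h3h and Hist1h3i were summed before the fit, the sum rose by 1.66 (SE 0.11, adjusted p = 5.94e-08).

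H2B had 6 of 11 tested genes higher and 1 lower. Hist1h2bk (ENSMUSG00000062727, chr13:22035870-22036345), whose 30-base tail and octamer promoter are given above, stood at 0.850, 0.888 and 0.411 CPM in control and 3.47, 3.40 and 3.57 in SAHA. The SAHA libraries were close together and well above control, with a log2 fold change of 2.28 (SE 0.27, adjusted p = 1.02e-05). The most abundant H2B gene, Hist1h2bh, stood at 2.59, 1.99 and 3.0 CPM in control and 3.94, 3.49 and 3.06 in SAHA, and its small rise of 0.47 (SE 0.18, adjusted p = 0.0323) was lost without control replicate 2 (0.32), SAHA replicate 1 (0.37) or SAHA replicate 2 (0.47). Hist1h2bq, at 0.850, 1.06 and 1.27 CPM in control, had 3.25, 3.09 and 1.12 in SAHA: it was called higher (1.2, SE 0.35, adjusted p = 0.00756) although SAHA replicate 3 lay within the control range. Hist1h2bc was the H2B gene called lower, with 0.978, 0.550 and 1.11 CPM in control against 0.303, 0.442 and 0.560 in SAHA (−1.01, SE 0.36, adjusted p = 0.0256). The groups overlap there, and the call was lost without control replicate 1 (−0.93) or 3 (−0.80) and without SAHA replicate 1 (−0.81) or 2 (−1.02). Summed over Hist1h2bj, Hist1h2bk, Hist1h2bl, Hist1h2bn, Hist1h2bq and Hist1h2br, which share sequence, the change was 1.69 (SE 0.14, adjusted p = 4.78e-07).

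H4 had 3 of 7 tested genes higher and none lower. Hist1h4b stood at 0.893, 0.550 and 0.658 CPM in control and 2.51, 2.96 and 1.72 in SAHA, without overlap (1.77, SE 0.43, adjusted p = 0.00266). Hist4h4, the only Hist4 member, stood at 1.15, 0.803 and 0.905 CPM in control and 1.65, 1.5 and 1.64 in SAHA, a smaller rise with no overlap (0.74, SE 0.23, adjusted p = 0.0125). Hist1h4i, at 1.45, 1.94 and 1.40 CPM in control and 1.04, 1.46 and 1.29 in SAHA, did not pass the test (log2 fold change −0.34).

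For H1, the linker that binds the DNA entering and leaving the nucleosome, 3 of 5 tested genes were higher in SAHA. Hist1h1e stood at 0.468, 0.719 and 0.699 CPM in control and 1.65, 1.46 and 1.64 in SAHA (1.32, SE 0.23, adjusted p = 0.000234). Hist1h1b stood at 0.298, 0.169 and 0.452 CPM in control and 1.08, 1.06 and 0.775 in SAHA (1.64, SE 0.34, adjusted p = 0.000818). Hist1h1a stood at 0.255, 0.127 and 0 CPM in control and 0.476, 0.707 and 0.861 in SAHA. This is 9 counts over the control libraries and 47 over SAHA, so its log2 fold change of 2.39 (SE 0.57, adjusted p = 0.00251) rests on few counts. The most abundant H1 gene, Hist1h1c, at 3.15, 2.71 and 3.62 CPM in control and 4.33, 3.67 and 4.09 in SAHA, did not pass (0.35, adjusted p = 0.0567). Its libraries did not overlap, and it was near the threshold. It was called higher with at least 10 counts in every library (0.38), with a replicate block (0.35) and without control replicate 3 (0.46).

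H2A had 2 of 10 tested genes higher in SAHA and 3 lower. Hist1h2ao fell from 145, 114 and 119 CPM in control to 66.4, 60.4 and 66 in SAHA. All SAHA libraries were below all controls, with a log2 fold change of −0.97 (SE 0.09, adjusted p = 7.25e-07). Its near copy Hist1h2ap stood at 22.5, 14.0 and 19.2 CPM in control and 15.0, 18.4 and 12.8 in SAHA, with overlap and no call (−0.27, adjusted p = 0.271). Summed with Hist1h2ag, with which they share sequence, the 3 genes fell by 0.85 (SE 0.08, adjusted p = 1.27e-06). Hist1h2af fell from 4.08, 1.73 and 1.52 CPM to 0.520, 0.751 and 0.129 (−2.38, SE 0.48, adjusted p = 0.000798). It has 5.7% of 31-base words of its own, and the sum of its 6 sequence-sharing genes changed by 0.06 (SE 0.39, adjusted p = 0.900).

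**Figure D2:**
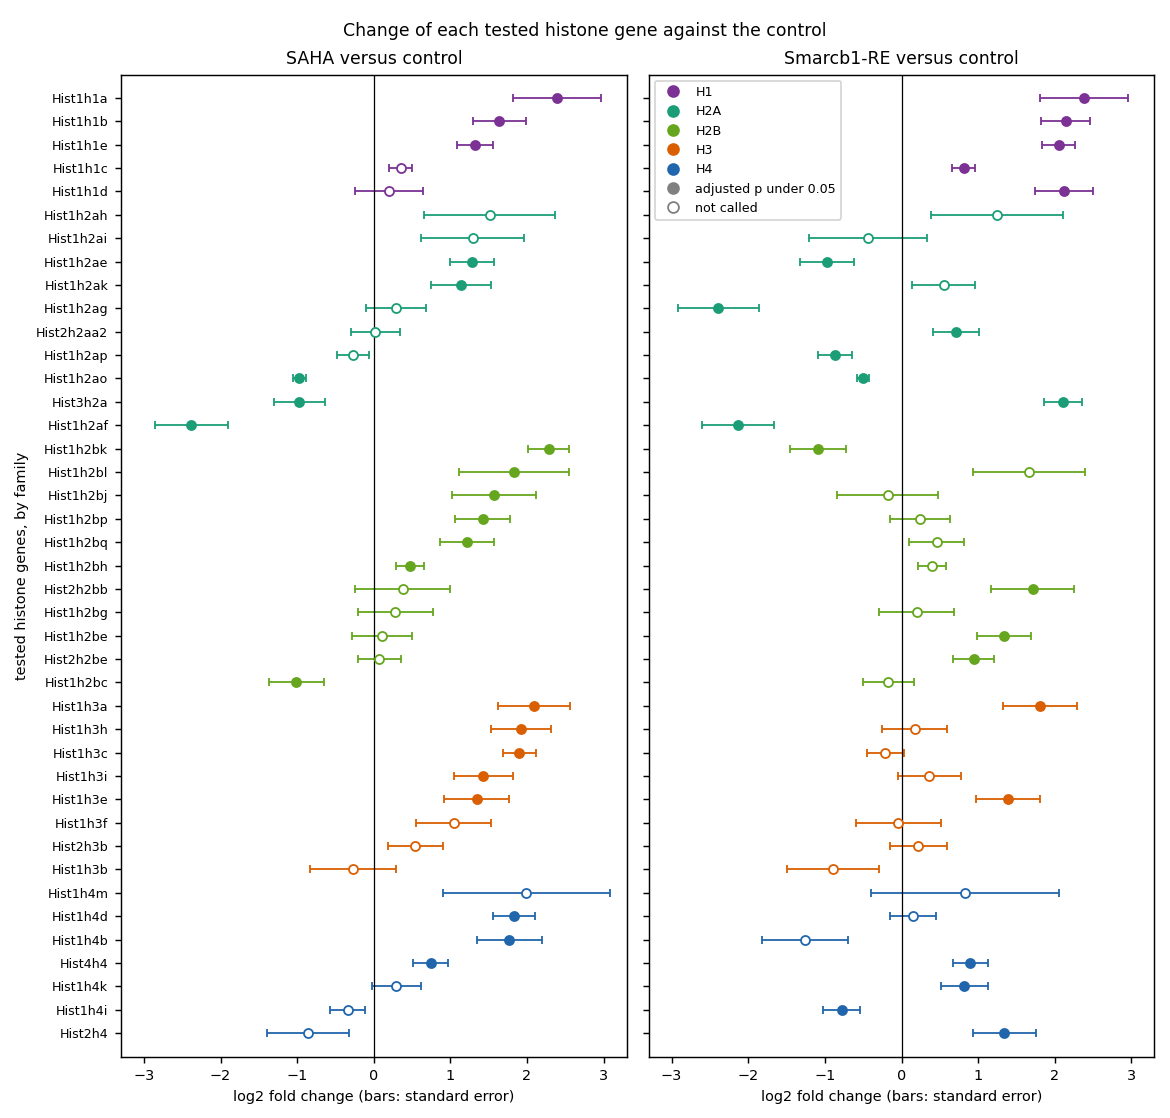
Log2 fold change (x axis) of each of the 41 tested members, grouped by family, in SAHA and in Smarcb1-RE against the same 3 control libraries. Bars are standard errors, filled points have an adjusted p under 0.05, and open points are not called; the 5 tested H1 genes are all filled and to the right in Smarcb1-RE, against 3 in SAHA.

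Smarcb1-RE against control asked the same of re-expressed Smarcb1. H1 genes and genes outside Hist1 were called higher, 5 H2A genes of Hist1 lower, and most H3 genes were not called. Tested members were higher in 15 cases and lower in 7, a share of 53.7% called against 77.8% of all genes. Those called higher were 36.6% against 39.2% of all genes, which is near the background, and those called lower 17.1% against 38.6%. Of the 18 members above the filter's minimum in every control library, 6 were higher and 5 lower, and without a filter 16 of 64 were higher and 8 lower. Libraries did not overlap for 17 members above and 5 below control, against 40.4% and 39.1% of all genes. The median log2 fold change was 0.40 over tested members and 0.01 over all genes. Scaling by library totals alone moved the median of all genes to 0.17 and the higher share of all calls from 50.4% to 61%. It kept the sign of each family's median, and gave 5 higher and 1 lower H2B genes in place of 3 and 1.

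All 5 tested H1 genes were higher in Smarcb1-RE, and in each the 3 Smarcb1-RE libraries lay above the 3 controls. Hist1h1d (ENSMUSG00000052565, chr13:23553262-23560686) stood at 0.553, 0.719 and 0.288 CPM in control, 0.736, 0.796 and 0.258 in SAHA and, in Smarcb1-RE, 2.77, 1.81 and 2.20. Control and SAHA overlapped and Smarcb1-RE stood clear of both, with a rise over control of 2.12 (SE 0.38, adjusted p = 0.000206). Hist1h1e (ENSMUSG00000051627, chr13:23620629-23622558) reached 2.73, 2.66 and 2.46 CPM, above control and SAHA alike (2.05 over control, SE 0.22, adjusted p = 2.29e-06). It overlaps Hist1h2be, with which it shares 24.5% of its 31-base words, and Hist1h2be was also called higher, from 0.468, 0.338 and 0.165 to 0.811, 0.841 and 0.819 CPM (1.34, SE 0.35, adjusted p = 0.00338). Hist1h1b reached 1.37, 1.33 and 1.42 CPM (2.14, SE 0.32, adjusted p = 5.12e-05), and Hist1h1c 6.19, 4.91 and 5.52 CPM (0.81, SE 0.15, adjusted p = 0.000249). Hist1h1a, again against 9 control counts in all, reached 0.768, 0.664 and 0.604 CPM (2.38, SE 0.57, adjusted p = 0.00200). In contrast to most core histone genes, 4 of these 5 have 88.6% to 99.7% of 31-base words of their own, so their reads are less open to being shared.

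Outside Hist1, 6 of 7 tested genes were higher in Smarcb1-RE and none lower, while in SAHA 1 was higher and 1 lower. Hist3h2a (ENSMUSG00000078851, chr11:58954685-58956830) stood at 0.680, 0.507 and 0.617 CPM in control and 2.47, 2.97 and 2.41 in Smarcb1-RE (2.11, SE 0.25, adjusted p = 6.4e-06). It shares 32.1% of its 31-base words with Trim17. Hist2h2be, an H2B gene with a transcript of 2620 bases and 97.2% of words of its own, rose from 1.36, 1.56 and 1.15 to 2.52, 2.97 and 2.37 CPM (0.94, SE 0.27, adjusted p = 0.00579). Hist4h4 reached 1.79, 2.08 and 1.47 CPM (0.90, SE 0.23, adjusted p = 0.00298). Hist2h4 went from 0.298, 0.296 and 0.288 to 0.555, 1.02 and 0.690 CPM (1.34, SE 0.41, adjusted p = 0.00940), a call lost without Smarcb1-RE replicate 2 (1.07). Hist2h2bb had 0.383, 0.380 and 0.0411 CPM in control and 0.939, 0.930 and 0.776 in Smarcb1-RE (1.71, SE 0.54, adjusted p = 0.0117), but has no word of its own, since all of its sequence is in the overlapping Gm20628. The 10 Hist2 genes summed to 3.57, 3.38 and 3.37 CPM in control, 3.34, 3.54 and 3.62 in SAHA and, in Smarcb1-RE, 6.40, 7.35 and 6.42, so control and SAHA overlapped and Smarcb1-RE lay above both.

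**Figure D3:**
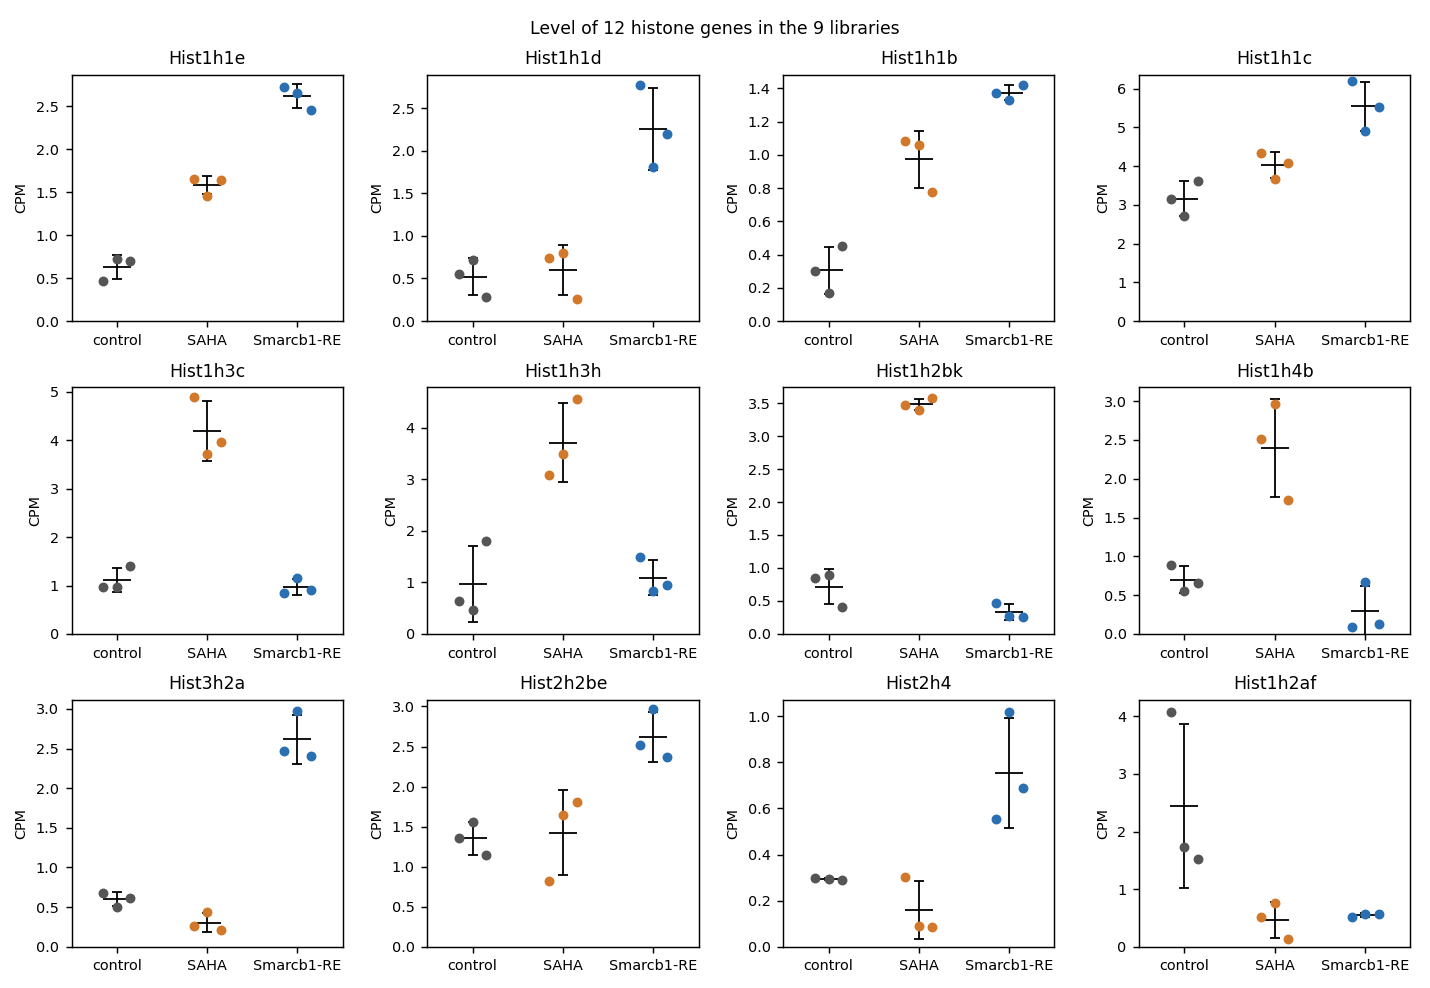
CPM (y axes, from 0) of 12 members in the 3 control, 3 SAHA and 3 Smarcb1-RE libraries. Points are libraries and bars are the mean and SD (n = 3). Hist1h1d and Hist3h2a are high in Smarcb1-RE, Hist1h2bk and Hist1h3c in SAHA, and Hist1h2af in control.

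The 7 members called lower in Smarcb1-RE were 5 H2A genes, 1 H2B and 1 H4 gene, all of them in Hist1. Hist1h2ao stood at 97.4, 82.3 and 87.9 CPM, below every control library (−0.50, SE 0.08, adjusted p = 0.000135). Hist1h2ap stood at 6.61, 10.7 and 13.2 CPM, also below every control (−0.87, SE 0.22, adjusted p = 0.00283), and the sum of both with Hist1h2ag fell by 0.55 (SE 0.08, adjusted p = 3.62e-05). Hist1h2ag had 61 counts over the control libraries and 11 over Smarcb1-RE (−2.39, SE 0.53, adjusted p = 0.00112). Hist1h2af stood at 0.512, 0.575 and 0.561 CPM (−2.14, SE 0.47, adjusted p = 0.00109), while its group of 6 gave −0.71 (SE 0.40, adjusted p = 0.127). Hist1h4i fell to 1.02, 0.841 and 0.905 CPM, each below its controls (−0.78, SE 0.24, adjusted p = 0.00909).

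Of H3, 2 of 8 tested genes were higher in Smarcb1-RE. Hist1h3a reached 0.853, 0.398 and 0.992 CPM (1.81, SE 0.48, adjusted p = 0.00389). Hist1h3c stood at 0.853, 1.15 and 0.905 CPM, within the control spread (−0.21, SE 0.24, adjusted p = 0.456), and Hist1h3h at 1.49, 0.841 and 0.949 CPM gave 0.17 (SE 0.43, adjusted p = 0.736). The sum of the 6 sequence-sharing H3 genes changed by 0.14 (SE 0.12, adjusted p = 0.316). For the 6 sequence-sharing H2B genes the sum changed by 0.24 (SE 0.16, adjusted p = 0.167). Hist1h2bh was at 3.29, 3.45 and 3.28 CPM, with 0.40 (SE 0.18, adjusted p = 0.0540). Hist1h4b was at 0.0853, 0.664 and 0.129 CPM, with −1.26 (SE 0.56, adjusted p = 0.0548), and was called lower without Smarcb1-RE replicate 2 (−2.65). With every library kept, it was called lower by DESeq2 (−1.27), without a filter (−1.28) and with a replicate block (−1.34). Summed with Hist1h4a and Hist1h4k, which share sequence, the change was 0.1 (SE 0.24, adjusted p = 0.713).

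The treatments share the control libraries, so their fold changes are given side by side and not related to each other. Members called higher in both were 6 (Hist1h1a, Hist1h1b, Hist1h1e, Hist1h3a, Hist1h3e and Hist4h4), and 2 were lower in both (Hist1h2af and Hist1h2ao). In SAHA alone 11 were higher, all of them Hist1 genes, and in Smarcb1-RE alone 8 were, among them Hist1h1c, Hist1h1d and 4 Hist2 genes. Opposite directions were called for 3 members, and 2 of these were not called in Smarcb1-RE once sequence-sharing members were summed. Of all genes, 66.9% were called in SAHA and 77.8% in Smarcb1-RE. The shares of all genes called in both, in 1 only or in opposite directions were not computed, so these counts only describe the members. Hist1h2bk was higher in SAHA and lower in Smarcb1-RE, at 0.469, 0.266 and 0.259 CPM (−1.09, SE 0.36, adjusted p = 0.0140). Its Smarcb1-RE and control libraries overlap, and the call was lost without control replicate 2 (−0.92) or Smarcb1-RE replicate 2 (−0.96) or 3 (−0.95). In Smarcb1-RE its sequence-sharing group of 6, summed, gave 0.24 and no call, as above. Hist1h2ae stood at 0.425, 0.803 and 0.905 CPM in control, 1.69, 1.77 and 1.77 in SAHA (1.28, SE 0.29, adjusted p = 0.00157) and 0.299, 0.487 and 0.302 in Smarcb1-RE (−0.97, SE 0.35, adjusted p = 0.0228). The rise was without overlap, whereas the fall was lost without control replicate 2 (−0.89) or 3 (−0.77), without Smarcb1-RE replicate 1 (−0.86) or 3 (−0.86), and with scaling by library totals (−0.81). Summed with Hist1h2ak, the Smarcb1-RE value was −0.23 (SE 0.23, adjusted p = 0.367), against 1.24 in SAHA (SE 0.20, adjusted p = 0.000153). Hist3h2a went the other way, with 0.260, 0.442 and 0.215 CPM in SAHA (−0.97, SE 0.33, adjusted p = 0.0207), a call lost without control replicate 1 (−0.87) or SAHA replicate 1 (−0.87) or 3 (−0.77).

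Smarcb1-RE against SAHA tests these differences directly. Of 41 tested members 9 were higher and 12 lower in Smarcb1-RE, a share of 51.2% against 74.6% of all genes (22% against 37.7% higher and 29.3% against 36.8% lower). Without a filter 10 of 64 were higher and 16 lower. Libraries did not overlap for 12 members above and 13 below SAHA, against 40.7% and 39.2% of all genes. H1 was higher in 3 of 5 and lower in none, and H3 was lower in 3 of 8 and higher in none. Hist3h2a showed a difference of 3.08 (SE 0.28, adjusted p = 5.61e-07), Hist2h4 of 2.20 (SE 0.46, adjusted p = 0.000806) and Hist1h1d of 1.92 (SE 0.37, adjusted p = 0.000439). Hist1h1e was higher by 0.72 (SE 0.20, adjusted p = 0.00512), Hist1h2be by 1.23 (SE 0.34, adjusted p = 0.00597) and Hist1h1c by 0.46 (SE 0.14, adjusted p = 0.0119), the last lost without Smarcb1-RE replicate 1 (0.36) or SAHA replicate 2 (0.38). Hist1h1b, with 0.49, was not called (SE 0.28, adjusted p = 0.122). On the other side Hist1h2bk differed by −3.37 (SE 0.31, adjusted p = 5.34e-07), with every SAHA library above every Smarcb1-RE library.

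Hist1h4b was lower than in SAHA (log2 fold change −3.02, SE 0.49, adjusted p = 0.0001). Hist1h2ag differed by −2.68 (SE 0.52, adjusted p = 0.000426), Hist1h2ae by −2.25 (SE 0.32, adjusted p = 3.07e-05), Hist1h3c by −2.11 (SE 0.22, adjusted p = 1.76e-06) and Hist1h3h by −1.75 (SE 0.39, adjusted p = 0.00121). Sums with sequence-sharing copies were smaller or of the other sign. The group of 6 with Hist1h2bk differed by −1.45 (SE 0.14, adjusted p = 9.43e-07), Hist1h2ae with Hist1h2ak by −1.47 (SE 0.21, adjusted p = 3.2e-05) and Hist1h4b with Hist1h4a and Hist1h4k by −1.07 (SE 0.22, adjusted p = 0.000766), while the group of Hist1h2ag was higher in Smarcb1-RE, as given next. Hist2h2bb (1.33, SE 0.52, adjusted p = 0.0351) lost its call without Smarcb1-RE replicate 1 (1.27), 2 (1.29) or 3 (1.41) and without SAHA replicate 2 (1.24) or 3 (0.93). The near copies Hist1h2ao and Hist1h2ap were called in opposite directions. Hist1h2ao was higher in Smarcb1-RE (0.47, SE 0.09, adjusted p = 0.000301), as was the sum of both with Hist1h2ag (0.30, SE 0.08, adjusted p = 0.00481). Hist1h2ap was lower (−0.60, SE 0.22, adjusted p = 0.0278) and lost the call without Smarcb1-RE replicate 1 (−0.38) or 2 (−0.64), without SAHA replicate 1 (−0.63) or 2 (−0.47), and with library totals (−0.44). Scaling by library totals moved the median of all genes to 0.18, the higher share of calls from 50.6% to 62.1%, and the H2B median from −0.08 to 0.08. It called 12 members higher and 10 lower. With sequence-sharing members summed, 10 sums were higher and 7 lower. Which direction holds more members thus depends on the scaling and on the summing, and no direction is given for H2B as a family in this comparison.

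Hist1 lies in 2 blocks, chr13:21715763-22043676 with 23 members and chr13:23531050-23934851 with 31, and 17 were tested in each. In SAHA 9 were higher and 1 lower in the first block and 9 higher and 2 lower in the second. In Smarcb1-RE 2 were higher and 5 lower in the first block, and 7 higher and 2 lower in the second, which holds 4 of the 5 tested H1 genes. In the direct comparison 1 was higher and 8 lower in the first, against 4 and 4 in the second. Called higher in Smarcb1-RE were 11.8% of tested members in the first block and 41.2% in the second, against 39.2% of all genes. Called lower were 29.4% and 11.8%, against 38.6%. In SAHA 52.9% were higher in each block, against 32.6% of all genes, and 5.88% and 11.8% lower, against 34.3%. Directly compared, 5.88% and 23.5% were higher, against 37.7%, and 47.1% and 23.5% lower, against 36.8%. The difference between blocks was not tested, and neighbours in a block also share sequence and family.

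**Figure D4:**
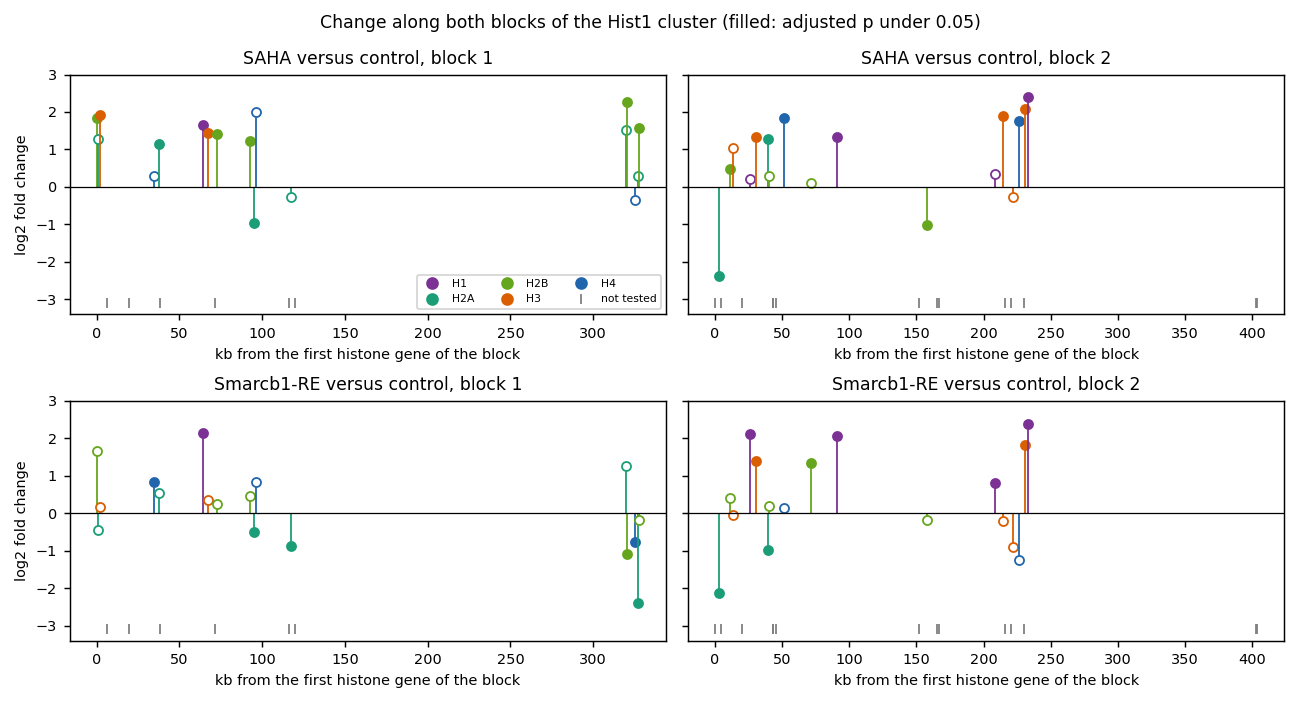
Log2 fold change (y axis) against distance in kb from the first histone gene of each of the 2 Hist1 blocks (x axis), in SAHA and in Smarcb1-RE against control, coloured by family. Filled points have an adjusted p under 0.05, open points are not called and ticks mark untested members; in Smarcb1-RE the first block has 2 filled points above 0 and 5 below.

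Members differ in how long a transcript the annotation gives them. Of the 13 tested with a longest coding transcript of at least 1000 bases, 8 were higher and none lower in Smarcb1-RE (median log2 fold change 0.90), and of the 28 shorter ones 7 were higher and 7 lower (0.21). In SAHA the longer group had 5 higher and 2 lower (0.35), and the shorter group 14 higher and 2 lower (1.31). Directly compared, the longer group had 7 higher and 1 lower in Smarcb1-RE against SAHA (0.72) and the shorter group 2 and 11 (−0.52). Called higher in Smarcb1-RE against control were 61.5% of the longer and 25.0% of the shorter members, against 39.2% of all genes. Called lower were 0.0% and 25.0%, against 38.6%. Of all genes, 32.6% were higher and 34.3% lower in SAHA, and 37.7% and 36.8% in the direct comparison. Without H1, 10 longer core histone genes had 5 higher and none lower in Smarcb1-RE against control, and 26 shorter ones 5 higher and 7 lower. Across the 41 members, Spearman's rho of length with the log2 fold change was −0.26 in SAHA, 0.34 in Smarcb1-RE and 0.42 between them, and without H1 (36 members) −0.30, 0.17 and 0.27. With the percentage of words of their own, rho was −0.03, 0.34 and 0.30, and without H1 −0.11, 0.11 and 0.13. These are descriptions over genes that share sequence and libraries, and length, family, cluster and shared reads move together among the members.

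**Figure D5:**
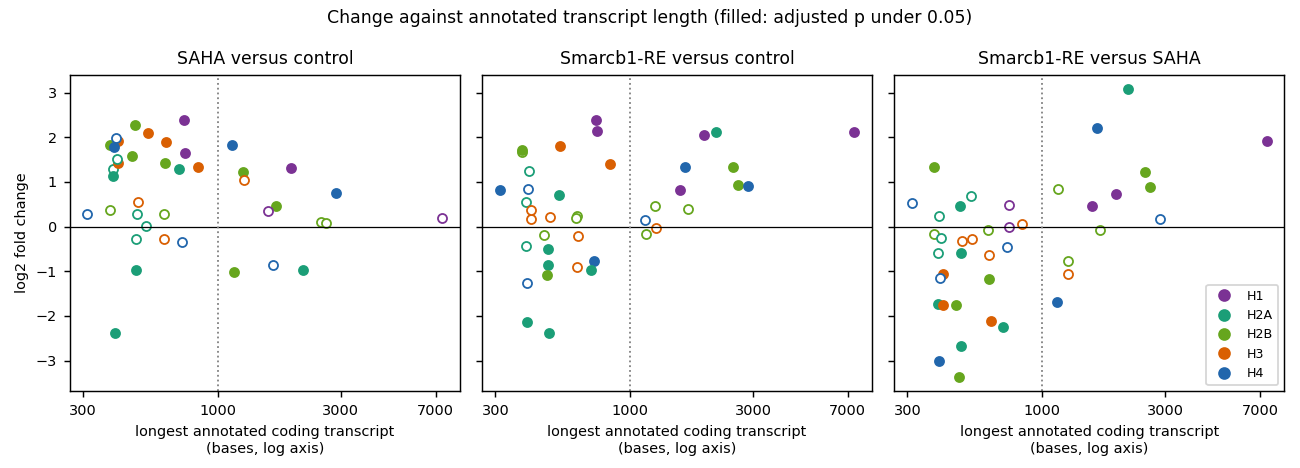
Log2 fold change (y axis) of the 41 tested members against the longest annotated coding transcript (x axis, bases, log scale) in the 3 comparisons, coloured by family. Filled points have an adjusted p under 0.05 and the dotted line is at 1000 bases; to its right 8 points are filled above 0 and none below in Smarcb1-RE against control.

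The genes that make and handle histone mRNA were read from lists named in the methods. Counts in these and the following lists have to be read against all tested genes. Of those, 32.6% were higher and 34.3% lower in SAHA, and 39.2% higher and 38.6% lower in Smarcb1-RE. Of 17 transcription and 3′ processing genes, all tested, 1 was higher and 11 lower in SAHA, and 2 higher and 12 lower in Smarcb1-RE. Slbp, which binds the stem-loop, stood at 202, 192 and 183 CPM in control, 167, 158 and 159 in SAHA and, in Smarcb1-RE, 128, 132 and 123. The 3 groups did not overlap, with changes of −0.26 (SE 0.05, adjusted p = 0.000299) and −0.60 (SE 0.05, adjusted p = 9.76e-08) against control. Npat stood at 68.8, 75.6 and 75.0 CPM in control, 77.1, 75.6 and 80.8 in SAHA and, in Smarcb1-RE, 63.3, 64.2 and 60.8, and was lower in Smarcb1-RE (−0.22, adjusted p = 0.00105) with no call in SAHA (0.09, adjusted p = 0.117). Lsm11, a protein of the U7 particle that directs the cut, fell by 0.18 in SAHA and by 1.13 in Smarcb1-RE, and the cap-binding Ncbp2 by 0.68 and 1.37.

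Of 7 genes of histone mRNA decay, 1 was higher and 2 lower in SAHA, and 3 higher and 3 lower in Smarcb1-RE. The counts in Smarcb1-RE are near the shares of all genes. Tut4, known for adding uridines to RNA ends, was higher by 0.21 in SAHA and 0.77 in Smarcb1-RE. Eri1, an exonuclease that trims the stem-loop end, had −0.11 without a call in SAHA (adjusted p = 0.0513) and fell by 0.71 in Smarcb1-RE. The helicase Upf1 fell by 0.18 and 0.63. Of 9 genes that carry or assemble H3 and H4, 1 was higher and 5 lower in SAHA and none higher and 8 lower in Smarcb1-RE. Nasp, a carrier of H3 and H4, fell by 0.62 and 0.20, and Chaf1b, a subunit of the assembly factor CAF-1, by 0.54 and 0.65.

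S-phase genes, whose RNA rises together with histone mRNA in cycling cells, moved down in both treatments: of 24, 21 were lower and none higher in SAHA (median −0.52), and 23 lower and none higher in Smarcb1-RE (median −0.76). The thymidine kinase Tk1 fell by 1.26 and 1.27, the flap endonuclease Fen1 by 0.53 and 1.60, and the helicase subunit Mcm5 by 0.77 and 1.36. Of 10 mitosis genes, 10 were lower in SAHA and 9 in Smarcb1-RE, with log2 fold changes of −0.75 and −1.76 for the mitotic kinase Plk1. The drop of Hist1h2ao was in the same direction as these lists in both treatments, whereas the sums of H1, H2B, H3 and H4 were above control in both. After re-expression the paper reports slower growth of T15 cells, with no effect on viability or the cell cycle. For SAHA it reports strong apoptosis, with most cells dead, at higher doses that include 1 µM. The share of cells in S phase and the share of dying cells are not among the values analysed here. Their part in the histone values was not tested.

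Replacement histone genes are spliced or polyadenylated genes used outside S phase. Of 10, 5 were higher and 5 lower in SAHA, and 2 higher and 6 lower in Smarcb1-RE. Both linker variants among them were called in opposite directions in the treatments. H1fx stood at 2.42, 2.49 and 2.18 CPM in control, 7.28, 8.93 and 11.1 in SAHA and, in Smarcb1-RE, 0.811, 0.531 and 0.431, with all 3 groups apart (1.94, SE 0.19, adjusted p = 1.5e-06, and −1.99, SE 0.26, adjusted p = 1.24e-05). H1f0, the linker histone of differentiated and non-dividing cells, stood at 41.1, 39.8 and 39.4 CPM in control, 27.2, 29.5 and 31.7 in SAHA and, in Smarcb1-RE, 70.7, 66.4 and 73.3 (−0.44, SE 0.06, adjusted p = 3.07e-05, and 0.81, SE 0.06, adjusted p = 3.73e-08). H1f0 moved with the H1 members in Smarcb1-RE and against them in SAHA, while H1fx did the reverse.

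Of the remaining tested members, 7 were called in neither treatment: Hist1h2ah, Hist1h2ai, Hist1h2bg, Hist1h3b, Hist1h3f, Hist1h4m and Hist2h3b. A missing call does not show that they did not change. Hist1h4m gave 1.99 in SAHA (SE 1.09, adjusted p = 0.127), with 21, 37 and 0 counts where its near copy Hist1h4n had 6, 0 and 24. Summed before the fit, the copies were called higher in SAHA (2.10, SE 0.36, adjusted p = 0.000197) and in Smarcb1-RE (1.10, SE 0.39, adjusted p = 0.0209). The 26 untested members comprised 1 H1, 8 H2A, 7 H2B, 4 H3 and 6 H4 genes, with at most 66 counts over all 9 libraries. Without control replicate 1, 21 members were higher and 2 lower in SAHA, 14 and 7 in Smarcb1-RE, and 10 and 13 between the treatments.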

How the data were processed

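RNA-seq of T15 cells was read from 1 table of estimated counts, with a row per Ensembl gene, which the authors deposited without normalization and without pooling replicates. The submitters' processing notes name FastQC 0.11.8, MultiQC 1.7, Salmon 0.14.1, DESeq2 1.22.2 and GRCm38. Salmon divides reads that match several transcripts by a model, so values of near-identical histone genes are uncertain, and 52.4% of values above 0 were not whole. The library kit was directional and reads were single-end, while the RNA selection is not given in the sources used here. Symbols, coordinates and transcripts came from GENCODE M21 (GRCm38), in which 99.5% of identifiers, carrying 99.9% of the counts, had an entry. Own sequence is the share of a gene's 31-base words found in no other gene's transcripts.

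Estimated counts were rounded and analysed in R 4.3.3 with edgeR 4.0.16: TMM, filterByExpr with a minimum count of 10, and 1 quasi-likelihood fit to all 9 libraries, with Benjamini-Hochberg adjustment over the 13697 genes tested and a threshold of 0.05. The SE is the absolute log2 fold change over the square root of F. The common biological coefficient of variation was 5.24%. The calculations were tested on simulated counts. Groups and replicate numbers came from the sample titles, and no replicate pair agreed within sampling noise. Intervals and floors cover counting error only.

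The members, lists, tests and named-gene rule were chosen with earlier results of these data known. Named members were the 3 with the highest mean CPM per family, the 5 with the largest called change per comparison and direction, and those called in opposite directions. Named others were Smarcb1, Npat, Slbp and the largest called changes per list. Hist1h4m, and members named only to spell out a count, were named after their values were seen. Alternatives were DESeq2 1.42.0, RLE factors, library totals, no or a stricter filter, separate fits, a replicate block, a minimum log2 fold change of 1 and leaving out each library. A list of 12 RNAs that lack poly(A) tails was not analysed here.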

Additional observations from a re-analysis of the deposited data

How the results depend on the processing

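Among 1275 combinations of a named member, a comparison and an alternative (26 members), 1212 kept their direction and side of the threshold, 42 lost and 21 gained a call, and no called value changed sign; 22 values called in neither fit did. The members tested set most counts. With at least 10 counts in every library, 13 members were tested and 9 were called in each comparison: 8 higher and 1 lower in SAHA, 6 and 3 in Smarcb1-RE, and 4 and 5 between the treatments. A minimum absolute log2 fold change of 1 left 2 lower in SAHA, 13 called and 3 lower in Smarcb1-RE, and 5 higher in Smarcb1-RE against SAHA. DESeq2 called 2 lower in SAHA, without Hist3h2a (−0.97) and Hist1h2bc (−1.01), nor did it call Hist1h2bh there (0.47) or Hist1h2ae in Smarcb1-RE (−0.98). Leaving out each library in turn gave 18 to 26 members called in SAHA (15 to 22 higher, 2 to 4 lower, with 2 without control replicate 1), 18 to 22 in Smarcb1-RE (12 to 16 higher, 5 to 8 lower) and 16 to 25 between them (7 to 12 higher, 9 to 14 lower). Summing members that share at least 50% of a member's 31-base words, an alternative chosen after seeing the data as was summing Hist1h2ao with Hist1h2ap, left 27 of 43 sums tested. Of these sums 13 were higher and 3 lower in SAHA, 14 and 2 in Smarcb1-RE, and 10 and 7 in Smarcb1-RE against SAHA. Replicate numbers recur in each group, but deviations of same-numbered libraries were not correlated (mean r −0.003, from −0.072 to 0.037, in 9 pairs, against 0.002 in 18 pairs with different numbers), so the numbers do not pair the samples. With the replicate block, 19 were higher and 4 lower in SAHA, 14 and 8 in Smarcb1-RE, and 9 and 12 between them. Except for the stricter filter and the sums, which test fewer features, and the leaving out of libraries, the cause was not tested. Low counts limit every member but Hist1h2ao and Hist1h2ap.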
